A study of Homo sapiens with 36 samples.

Results

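The nuclear genes of the respiratory chain and ATP synthase were followed under inhibition of MEK in LoVo, a human cell line established from a colorectal cancer. Members were chosen by name: rows beginning NDUFA, NDUFB, NDUFC, NDUFS or NDUFV with a number (complex I), SDHA to SDHD (complex II), UQCR (complex III), COX4 to COX8 (complex IV) or ATP5 (complex V, the ATP synthase). Of 20802 genes, 88 matched, and the 77 with a mean of at least 5 counts over 36 libraries were kept, of which complex I gave 34, complex II 4, complex III 10, complex IV 11 and complex V 18. The rule used names and mean counts only. All 77 passed the filter on low counts of the test, which kept 12102 genes. The 11 members left out were COX4I2, COX6A2, COX7A1, COX7A2, COX7B2, NDUFB3, NDUFB6, NDUFC1, NDUFC2, the antisense RNA NDUFB2-AS1 and the pseudogene ATP5EP2, with means between 0.028 and 4.47 counts.

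Cells were exposed for 24 hours to the MEK inhibitor, which the labels do not name, at 0.03, 0.1, 0.3, 1, 3, 10, 30, 100, 300 or 1000 nM, with 3 libraries per dose. The reference was DMSO, with 6 libraries: replicates 1 to 3 on each of 2 sequencing chips. DMSO libraries with the same number on either chip differed less than any others (chi-square per degree of freedom over genes of 1.53 to 1.58, against 1.60 to 2.70), so the 6 may hold only 3 separate samples, and the SD in DMSO is over 3 pair means. All groups are the same line, and the labels state biological replicates without saying how cultures were separated, so the spread that enters the p-values is that between samples and may in part be technical. Each gene was read through a short amplicon of its own (Ion AmpliSeq), so its count also depends on how that amplicon performs, and levels of different genes are not compared.

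The respiratory chain passes electrons from NADH (complex I) and succinate (complex II) through coenzyme Q, complex III and cytochrome c to oxygen at complex IV, and the proton gradient that results drives ATP synthase. Complex I has a catalytic core, whose nuclear subunits hold the flavin and the iron-sulphur clusters, and many accessory subunits around it. ATP synthase has a catalytic head, F1, and a membrane and stalk part, Fo, that carries the rotating ring. Several core subunits are encoded in mitochondrial DNA and were not analysed here. MEK activates ERK, which in colorectal cancer cells sustains transcription factors of the ETS and MYC families, both known to bind promoters of mitochondrial genes.

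Total counts ran from 2972186 to 4751839 per library, and the members took between 1.38% and 1.793% of them. The ERK target DUSP6, a phosphatase of ERK, had a lowest, median and highest value of 1.41, 2.75 and 6.52 normalised counts, scaled to library size (CPM), in the 12 libraries of 30 to 1000 nM, against 58.5, 63.7 and 69.5 CPM in the 6 DMSO libraries. All 10 colon epithelial markers passed the filter and summed to 2710 to 3412 CPM at 30 to 1000 nM and 3419 to 3645 CPM in DMSO. Of 9 fibroblast markers 3 passed, and the sum of the list was 23.9 to 42.4 CPM at 30 to 1000 nM, against 3.28 to 4.51 CPM in DMSO, with COL1A2 and FAP at 0. Their part in the results was not tested. None of 5 blood markers and none of 4 endothelial markers passed the filter. Replicate 2 at 0.1 nM stood apart, with a median over the members of −0.22 (log2 difference from the DMSO mean), as did, by their distance from their group means, replicate 1 at 1 nM and replicate 1 at 1000 nM.

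Promoter windows from RefSeq (GRCh38.p14, from 250 bases before to 50 after the annotated start) were found for 62 of the 77 members and searched on both strands for 4 motifs, chosen with the members' results known. The letters of the ETS motif, CCGGAAG, were in 30.6% of the members' windows, against 10.7% of all 27305 windows and 19.4% of those of 8730 tested genes. The letters of the NRF1 motif, GCGCAT followed by GCGC, were in 6.45% of the members' windows, against 1.36% of all windows and 2.33% of those of tested genes. The E-box CACGTG, which MYC and its partners bind, was in 11.3% of the members' windows, against 7.43% and 10.5%. The letters AAGATGGCG, part of the motif of YY1, were in 12.9% of the members' windows, against 1.85% and 4.18%. The last letters of the ETS motif, AAG, are the first of the YY1 motif, so these can share bases. The 8 members with the YY1 letters are shown with 10 bases on either side, because 7 of them fell at 30 to 1000 nM. Capitals mark the motif, and all are on the strand of the gene, read 5′ to 3′.
NDUFS7 (chr19:1383914-1383942, + strand): ggccgaggccAAGATGGCGgtgctgtcag
NDUFS4 (chr5:53560650-53560678, + strand): tgcctgcagcAAGATGGCGgcggtgtcaa
NDUFA9 (chr12:4649114-4649142, + strand): attgtgggaaAAGATGGCGgctgccgcac
NDUFA6 (chr22:42090729-42090757, − strand): atgctttggcAAGATGGCGgggagcggcg
NDUFA7 (chr19:8321343-8321371, − strand): tcgcggacggAAGATGGCGtccgccaccc
SDHB (chr1:17054004-17054032, − strand): gtcaggagccAAGATGGCGgcggtggtcg
UQCRC1 (chr3:48609605-48609633, − strand): ctgcagctggAAGATGGCGgcgtccgtgg
ATP5J (chr21:25735093-25735121, − strand): aggcgaagaaAAGATGGCGgaggctgtgc

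The motif began 57 bases before the annotated start in ATP5J. In all the others it began after the start, by 11 (NDUFA9 and SDHB) to 26 bases (NDUFA6). The letters ATGGCG also occur where a coding sequence opens with methionine and alanine, so a match here is a description and not a binding site. Of members with a window, 7 of the 19 that were called lower at 30 to 1000 nM held the YY1 letters, as did 0 of the 14 called higher and 1 of the 29 not called. Among other tested genes the share was 5.62% of 2118 called lower, 2.09% of 2053 called higher and 4.34% of 4511 not called. The ETS letters were in 6 of 19 members called lower, 5 of 14 called higher and 8 of 29 not called. Among other tested genes the shares were 22.3%, 13.98% and 20.4%, in the same order. The E-box was in 3, 1 and 3 of these members, against 14.1%, 8.57% and 9.69% of other tested genes. The NRF1 letters were in 1, 1 and 2 of these members, against 2.46%, 1.46% and 2.62%.

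The 250 bases upstream of the start are shown for COX6B1, the member with the largest rise, and for SDHB, the complex II subunit with the largest fall. Capitals mark the ETS letters, on the opposite strand in COX6B1, 12 bases before the start, and on the gene's strand in SDHB, 128 bases before it. Both genes held these letters, and COX6B1 rose while SDHB fell. Any part of the letters in these changes was not tested.
COX6B1 (chr19:35648073-35648322, + strand): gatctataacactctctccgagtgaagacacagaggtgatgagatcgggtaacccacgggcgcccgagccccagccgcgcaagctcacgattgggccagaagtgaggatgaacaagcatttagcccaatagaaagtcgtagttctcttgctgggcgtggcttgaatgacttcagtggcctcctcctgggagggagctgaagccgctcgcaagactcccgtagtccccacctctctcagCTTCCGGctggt
SDHB (chr1:17054033-17054282, − strand): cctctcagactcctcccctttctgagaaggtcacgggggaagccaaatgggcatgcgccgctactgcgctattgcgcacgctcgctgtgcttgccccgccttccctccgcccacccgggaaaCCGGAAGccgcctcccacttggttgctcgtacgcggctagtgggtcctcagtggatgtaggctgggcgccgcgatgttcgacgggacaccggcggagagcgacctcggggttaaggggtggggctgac

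The first comparison asked how the members stood at the 4 highest doses, 30 to 1000 nM, against DMSO. The complexes did not move as blocks: 19 members rose, 22 fell and 36 did not pass the test, and each of complexes I, II, IV and V held members of both directions. The rise of COX6B1 by 1.00 ± 0.08 (log2 fold change ± SE) and the fall of NDUFA4L2 by 0.84 ± 0.26 mark the range. A gene was called at an adjusted p below 0.05 in the quasi-likelihood test of edgeR, adjusted after Benjamini and Hochberg over all tested genes, against the DMSO libraries of both chips and with the same sign. Over all tested genes 47.7% were called, 23.5% higher and 24.2% lower, so the members' shares were near the background. Their median log2 fold change was −0.02, against 0.00 for all tested genes. When each library of the comparison was left out in turn, 14 of the 19 rises and 9 of the 22 falls held in all 18 fits.

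**Figure D1:**
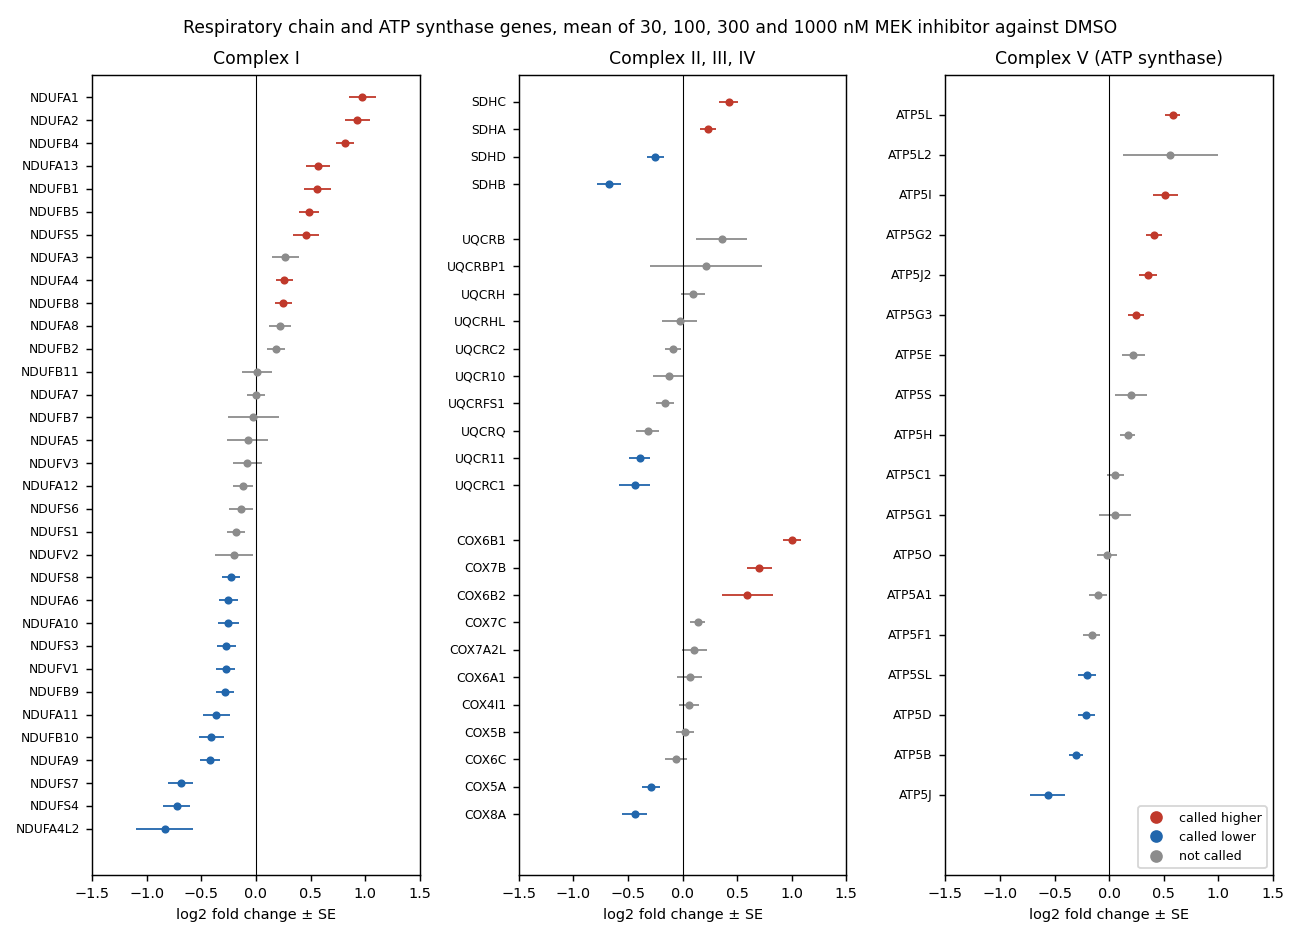
Log2 fold change of 76 of the 77 members in the mean of 30, 100, 300 and 1000 nM MEK inhibitor against DMSO, with its standard error, by complex and ordered by value. Red points were called higher (19), blue points lower (22) and grey points were not called (35 shown), and members of complexes I, II, IV and V stand on both sides of 0.

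In complex I, 9 of 34 members rose and 12 fell, with a median log2 fold change of −0.10. The rises were all among the 27 members outside the core, where 9 rose, 8 fell and the median was 0.00. The 27 include, by name, NDUFA4, now assigned to complex IV, which rose, and its paralogue NDUFA4L2, which fell. Of the 7 core subunits 4 fell and 0 rose, with a median of −0.26, and none of the 7 had a positive change at an unadjusted p below 0.05 in edgeR or a call as higher by DESeq2 or limma voom. The difference between core and accessory subunits was not tested.

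NDUFS7, a core subunit that holds an iron-sulphur cluster next to the coenzyme Q site, had a lowest, median and highest value of 44.2, 54.2 and 62.1 CPM at 30 to 1000 nM, against 75.0, 87.3 and 95.03 CPM in DMSO. The groups did not overlap, and the log2 fold change was −0.69 ± 0.11 (adjusted p = 8.5e-06, edgeR). NDUFV1, the flavin subunit that takes electrons from NADH, had 170, 222 and 247 CPM at these doses, against 255, 267 and 273 CPM in DMSO. Its libraries did not overlap either, and it fell by 0.28 ± 0.09 on the log2 scale, a call that was lost without DMSO chip 2 replicate 3 (adjusted p = 0.061, edgeR). NDUFS3 and NDUFS8 fell by 0.27 and 0.23. The call of NDUFS3 was lost without the same DMSO library (adjusted p = 0.11, edgeR), and that of NDUFS8 without replicate 1 or 3 of chip 1 or replicate 1 or 2 of chip 2 in DMSO (adjusted p between 0.064 and 0.14, edgeR). NDUFS1 and NDUFV2 had log2 fold changes of −0.18 and −0.20 and did not pass the test.

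Among accessory subunits the largest rises were those of NDUFA1, NDUFA2, NDUFB4 and NDUFA13. NDUFA1, a small membrane subunit needed for complex I assembly, had 231, 259 and 296 CPM at 30 to 1000 nM, against 124.8, 130 and 147 CPM in DMSO, and a log2 fold change of 0.97 ± 0.12 (adjusted p = 1.3e-07, edgeR). NDUFA2 had 71.2, 99.7 and 117 CPM, against 42.1, 52.9 and 59.9 CPM in DMSO, and rose by 0.93 ± 0.12. In both, every treated library lay above every DMSO library. NDUFB4, a subunit of the membrane arm, had 145, 171 and 185 CPM, against 88.5, 94.96 and 104 CPM in DMSO, and rose by 0.82 ± 0.08 (adjusted p = 6.3e-12, edgeR). NDUFA13, also known as GRIM-19, had 577, 678 and 928 CPM, against 437, 461 and 483 CPM in DMSO, and rose by 0.57 ± 0.11. The groups of NDUFA13 and NDUFB4 did not overlap. Neither did those of NDUFB1 and NDUFB5, which rose by 0.56 and by 0.49. NDUFS5 rose by 0.46 with overlapping groups. NDUFB8 rose by 0.25, but its call was lost in 16 of 18 fits with 1 library left out, and held only without 300 nM replicate 2 or 1000 nM replicate 3.

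The largest falls among members outside the core were those of NDUFA4L2, NDUFS4, NDUFA9 and NDUFB10. Of these, NDUFA4L2 is a paralogue of NDUFA4, which is now assigned to complex IV. NDUFS4, a subunit whose loss is known to cause Leigh syndrome, had 28.4, 44.03 and 65.1 CPM at 30 to 1000 nM, against 61.8, 69.3 and 89.4 CPM in DMSO, and fell by 0.72 ± 0.12 (adjusted p = 8.1e-06, edgeR). The groups overlapped at the top of the treated range. NDUFA9, which lies beside the coenzyme Q site, had 98.7, 119 and 141 CPM, against 148, 155 and 178 CPM in DMSO, with no overlap, and fell by 0.42 ± 0.09. NDUFB10 had 37.1, 49.4 and 59.9 CPM, against 56.5, 65.0 and 70.4 CPM in DMSO, and fell by 0.41 ± 0.11. Its call was lost without DMSO chip 2 replicate 2 (adjusted p = 0.073, edgeR). NDUFA11, NDUFB9, NDUFA10 and NDUFA6 fell by 0.36, 0.28, 0.25 and 0.25, and their calls were lost in 3, 4, 7 and 4 of 18 fits with 1 library left out (adjusted p up to 0.22, edgeR). The DMSO libraries whose absence ended at least one of these 4 calls were all 3 of chip 1 and all 3 of chip 2, and the treated ones were 30 nM replicates 1 and 2, 100 nM replicate 3, 300 nM replicate 1 and 1000 nM replicate 3.

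NDUFA4, named as a complex I subunit but now assigned to complex IV, had 202, 224 and 245 CPM at 30 to 1000 nM, against 164, 181 and 207 CPM in DMSO. It rose by 0.26 ± 0.08, a call lost without DMSO chip 1 replicate 1 or chip 2 replicate 1 or 2 (adjusted p between 0.076 and 0.12, edgeR). Its paralogue NDUFA4L2, a target of the hypoxia factor HIF1, had 1.45, 2.95 and 4.003 CPM, against 3.53, 5.36 and 6.01 CPM in DMSO. It fell by 0.84 ± 0.26, with overlapping groups, and its call was lost without DMSO chip 1 replicate 1 (adjusted p = 0.067, edgeR). The pair moved in opposite directions.

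All 4 subunits of complex II, which is also the succinate dehydrogenase of the citric acid cycle, were called, 2 in each direction. SDHC, one of the membrane anchors, had 133, 161 and 181 CPM at 30 to 1000 nM, against 111, 118 and 131 CPM in DMSO, and rose by 0.42 ± 0.09 (adjusted p = 6.2e-05, edgeR). SDHA, the flavin subunit where succinate is oxidised, had 198, 210 and 227 CPM, against 177, 182 and 189 CPM in DMSO, and rose by 0.23 ± 0.07. Neither overlapped with DMSO, but the call of SDHA was lost without DMSO chip 2 replicate 1 or 3 (adjusted p = 0.059 and 0.085, edgeR). SDHB, the iron-sulphur subunit, had 21.9, 29.5 and 37.6 CPM, against 40.1, 48.0 and 54.7 CPM in DMSO, and fell by 0.67 ± 0.11 with no overlap (adjusted p = 2.6e-06, edgeR). SDHD, the other membrane anchor, had 99.1, 111 and 130 CPM, against 121, 132 and 144 CPM in DMSO. It fell by 0.25 ± 0.08, a call lost without DMSO chip 2 replicate 1 (adjusted p = 0.087, edgeR).

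In complex III, 2 of 10 members fell and 0 rose, with a median log2 fold change of −0.11. None had a positive change at an unadjusted p below 0.05 in edgeR, and DESeq2 and limma voom called 0 higher. UQCRC1, a core protein on the matrix side, had 44.7, 76.6 and 109 CPM at 30 to 1000 nM, against 92.4, 96.7 and 111 CPM in DMSO, and fell by 0.44 ± 0.14. Its treated libraries were spread widely, and the call was lost without DMSO chip 1 replicate 2 (adjusted p = 0.060, edgeR). UQCR11, a small subunit, had 140, 171 and 207 CPM, against 202, 223 and 236 CPM in DMSO, and fell by 0.39 ± 0.09 (adjusted p = 0.0019, edgeR). UQCRH, the hinge protein, had 156, 191 and 267 CPM, against 170, 185 and 202 CPM in DMSO, with a log2 fold change of 0.10 that did not pass the test. Its near-identical copy UQCRHL had 19.7, 27.8 and 43.2 CPM, against 25.5, 29.2 and 36.2 CPM in DMSO, and amplicons of such copies can share reads. UQCRFS1, the Rieske iron-sulphur protein, had a log2 fold change of −0.16 and did not pass the test.

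In complex IV, 3 of 11 members rose and 2 fell, with a median log2 fold change of 0.06. COX6B1, which faces the intermembrane space, had 573, 649 and 737 CPM at 30 to 1000 nM, against 305, 318 and 339 CPM in DMSO (adjusted p = 3.8e-14, edgeR). This 2-fold rise was the largest among members, with a wide gap between the groups. COX7B had 245, 311 and 363 CPM, against 174, 189 and 215 CPM in DMSO, and rose by 0.70 ± 0.11 with no overlap. COX6B2, the paralogue of COX6B1 best known from testis, had 4.65, 7.82 and 9.92 CPM, against 2.82, 4.98 and 6.14 CPM in DMSO. It rose by 0.59 ± 0.23, a call lost in 8 of 18 fits with 1 library left out (DMSO replicate 2 of either chip, 30 nM replicate 3, 100 nM replicate 1, 300 nM replicates 2 and 3, 1000 nM replicates 2 and 3; adjusted p between 0.051 and 0.44, edgeR) and not made by DESeq2. COX8A had 88.9, 132 and 172 CPM, against 168, 179 and 204 CPM in DMSO, and fell by 0.44 ± 0.11. COX5A had 152, 181 and 217 CPM, against 192, 223 and 243 CPM in DMSO, and fell by 0.29 ± 0.08.

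Other paralogues of complex IV gave no call at these doses. COX4I1, the common form of the largest nuclear subunit, had 462, 643 and 798 CPM at 30 to 1000 nM, against 595, 616 and 652 CPM in DMSO, with a log2 fold change of 0.06, and COX4I2 was left out for low counts. COX6A1 had 1511, 1653 and 1813 CPM, against 1475, 1587 and 1635 CPM in DMSO, with a change of 0.06, and the muscle form COX6A2 was left out for low counts. COX7A2L, which is a factor of supercomplexes more than a subunit, had 132, 172 and 197 CPM, against 150, 156 and 180 CPM in DMSO, with a change of 0.11. In each of these the treated and DMSO libraries overlapped.

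In ATP synthase, 5 of 18 members rose and 4 fell, with a median log2 fold change of 0.11. The rises were all among the 11 Fo and stalk members, where 5 rose, 1 fell and the median was 0.24. The 11 include ATP5L2, a copy of ATP5L that is not a subunit and was not called. Of the 5 F1 members 2 fell and 0 rose, with a median of −0.10. That median was −0.03 against the DMSO libraries of chip 1 alone and −0.18 against those of chip 2 alone. No F1 member had a positive change at an unadjusted p below 0.05 in edgeR, DESeq2 and limma voom called 0 higher, and the difference between F1 and Fo was not tested.

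ATP5L, subunit g, which helps join synthase dimers, had 696, 754 and 897 CPM at 30 to 1000 nM, against 491, 502 and 542 CPM in DMSO, and rose by 0.58 ± 0.07 (adjusted p = 5.6e-10, edgeR). ATP5I, subunit e, its dimer partner, had 167, 197 and 231 CPM, against 130, 137 and 149 CPM in DMSO, and rose by 0.52 ± 0.11. Neither overlapped with DMSO. ATP5J2, subunit f, had 416, 517 and 599 CPM, against 364, 403 and 449 CPM in DMSO, and rose by 0.35 ± 0.08. The single Fo and stalk faller was ATP5J, coupling factor 6, with 7.32, 10.4 and 11.8 CPM, against 14.1, 15.0 and 16.3 CPM in DMSO. It fell by 0.56 ± 0.16 with no overlap. In F1, the catalytic beta subunit ATP5B had 1298, 1513 and 1694 CPM, against 1721, 1871 and 1990 CPM in DMSO, and fell by 0.31 ± 0.06 with no overlap (adjusted p = 0.00035, edgeR). ATP5D, the delta subunit, fell by 0.21, a call lost in 9 of 18 fits with 1 library left out (DMSO replicates 1 and 3 of both chips, 30 nM replicate 3, 100 nM replicates 1 and 3, 300 nM replicate 2, 1000 nM replicate 2; adjusted p between 0.052 and 0.25, edgeR). ATP5SL, which matches by name but is not a subunit, fell by 0.20, a call lost in 7 of 18 such fits (DMSO chip 1 replicates 2 and 3, DMSO chip 2 replicates 1 and 3, 30 nM replicate 3, 300 nM replicate 2, 1000 nM replicate 1; adjusted p between 0.051 and 0.20, edgeR).

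The c-ring subunit of Fo is encoded by 3 genes whose mature proteins are identical, ATP5G1, ATP5G2 and ATP5G3. ATP5G2 had 646, 732 and 808 CPM at 30 to 1000 nM, against 517, 545 and 574 CPM in DMSO, and rose by 0.41 ± 0.07 with no overlap (adjusted p = 2.7e-05, edgeR). ATP5G3 had 283, 320 and 403 CPM, against 248, 275 and 294 CPM in DMSO, and rose by 0.24 ± 0.07, a call lost without DMSO chip 2 replicate 3 (adjusted p = 0.16, edgeR). ATP5G1 had 19.01, 23.2 and 37.2 CPM, against 22.0, 23.5 and 28.0 CPM in DMSO, with a log2 fold change of 0.05 that did not pass the test.

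Without overlap between the 12 libraries of 30 to 1000 nM and the 6 of DMSO, 13 members lay above DMSO and 6 below. Among all tested genes 15.3% lay above and 15.2% below. The 13 were COX6B1, COX7B, NDUFA1, NDUFA2, NDUFA13, NDUFB1, NDUFB4, NDUFB5, SDHA, SDHC, ATP5G2, ATP5I and ATP5L. The 6 were NDUFA9, NDUFS7, NDUFV1, SDHB, ATP5B and ATP5J.

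The second comparison followed the members over the dose range. At 0.03, 0.1 and 0.3 nM no member was called, nor was any of the 12102 genes (0% in each). Unadjusted p-values below 0.05 in edgeR were seen for 0, 2 and 4 members, and every other setting tried, DESeq2 and limma voom among them, also called 0. At 1 nM, 15 members rose and 0 fell, where 7.97% of all genes were called, 3.95% higher and 4.02% lower. Only COX8A and NDUFS4 had a negative change at an unadjusted p below 0.05 in edgeR, and DESeq2 and limma voom called 0 members lower. The median over the members was 0.17 at 1 nM and 0.17 at 3 nM, against 0.01 and 0.00 over all genes.

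The 1 nM rises were 9 of complex I (NDUFA1, NDUFA2, NDUFA4, NDUFA7, NDUFA8, NDUFB4, NDUFB5, NDUFB8 and NDUFS5), SDHC, UQCRH, COX6B1, COX7B, ATP5J2 and ATP5G3. NDUFA1, COX6B1 and NDUFA2 had the largest log2 fold changes, 0.78, 0.68 and 0.62. The count depended on single libraries: 15 became 8 without 1 nM replicate 1 or without DMSO chip 2 replicate 3, and 9 without DMSO replicate 2 of either chip. It was 24 against the DMSO libraries of chip 1 alone and 26 against those of chip 2 alone.

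Falls were called at higher doses, where the share of all genes called lower was also larger than at 1 nM. At 3 nM 16 members rose and 1 fell, NDUFA4L2, with 6.66% of all genes higher and 6.68% lower. That single fall was lost in the fits without DMSO chip 1 replicate 1 or 3, any of the 3 DMSO libraries of chip 2, or 3 nM replicate 2, and by DESeq2, and became 2 without 3 nM replicate 3. At 10 nM 19 rose and 5 fell (13.5% and 13.3% of all genes). The 5 falls became 2 without DMSO chip 2 replicate 1, and 3 without DMSO chip 2 replicate 3 or 10 nM replicate 1. At 30 nM 17 rose and 6 fell (18% and 18%), and at 100 nM 15 rose and 10 fell (18.4% and 18.8%). At 300 nM 14 rose and 13 fell (22.1% and 23%), and at 1000 nM 14 rose and 17 fell (21.2% and 20.7%). The members' median was 0.05 at 30 nM, 0.01 at 100 nM and −0.07 at both 300 and 1000 nM. At 1000 nM it was 0.01 without replicate 3 of that dose. These comparisons share the DMSO libraries.

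**Figure D2:**
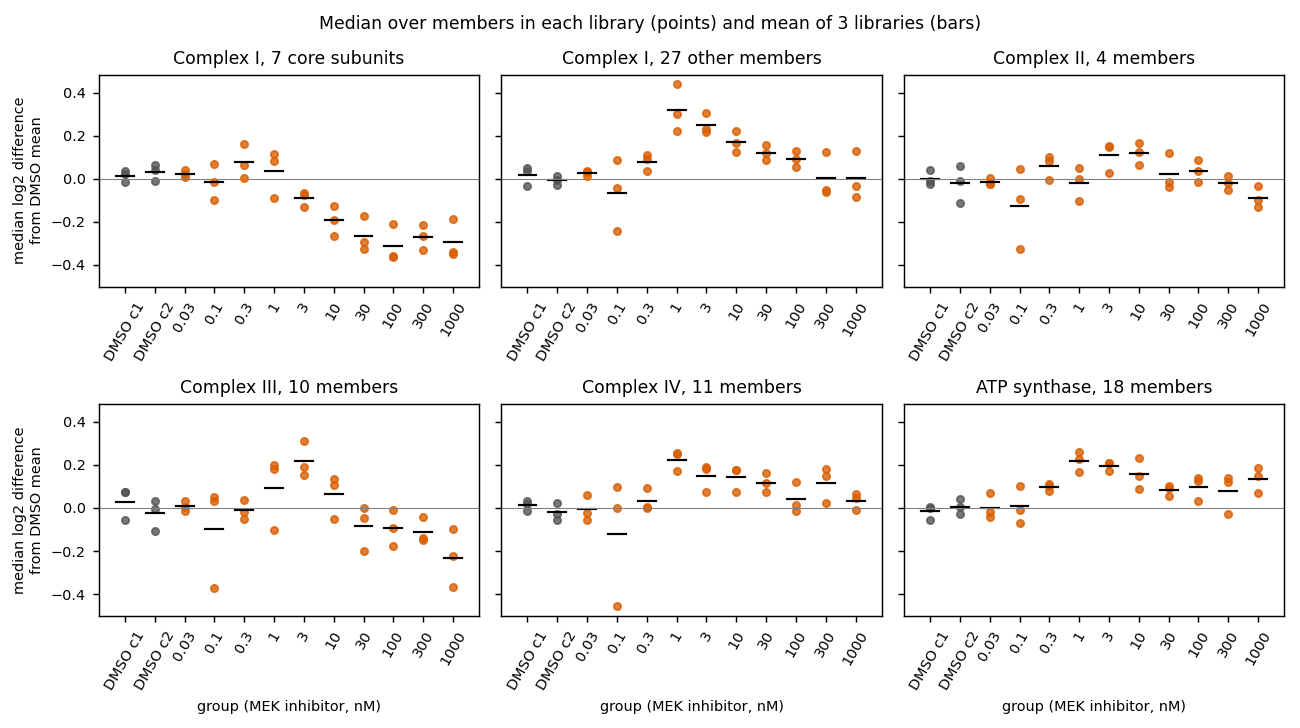
Median over members of the log2 difference from the DMSO mean, for each library (points) and as the mean of 3 libraries (bars), by group from DMSO (chip 1, c1, and chip 2, c2) through the doses in nM. The means for the 27 other complex I members, complex IV and ATP synthase are highest at 1 nM. In each of these sets the highest 1 nM library is replicate 1, which stood apart. The median of the 7 core subunits lies below 0 from 3 nM on, and replicate 2 at 0.1 nM lies low in complexes II, III and IV.

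Doses were also compared with each other, without DMSO. The labels do not give the chip of treated libraries. A difference between chips therefore cannot be told apart from one between doses in these comparisons. From 1 to 10 nM, 3 members were higher at 10 nM and 6 lower (7.06% and 8.36% of all genes). The lower ones were COX5A, NDUFA9, NDUFA7, ATP5D, NDUFB9 and ATP5A1. COX5A had 214, 188 and 173 CPM at 10 nM, against 280, 270 and 260 CPM at 1 nM, and fell by 0.49. NDUFA9 fell by 0.45, a call lost without 1 nM replicate 1 (adjusted p = 0.074, edgeR), and NDUFA7 by 0.43. The higher ones were COX7B, ATP5I and NDUFB4, by 0.40, 0.38 and 0.28. This count of 3 became 1 without 1 nM replicate 1 and 0 without 1 nM replicate 3 or any of the 3 libraries of 10 nM.

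The dose courses differed between members. In COX6B1 most of the rise was present at 1 nM. Its mean was 319 ± 3.11 CPM in DMSO (SD, n = 3 pairs of same-numbered libraries). Over the doses it was 372 ± 5.597 CPM (0.3 nM), 511 ± 23.8 (1 nM), 603 ± 20.1 (3 nM), 614 ± 23.8 (10 nM) and 644 ± 82.9 (1000 nM), each with the SD of 3 libraries. SDHB went the other way. It had 47.2 ± 2.21 CPM in DMSO, 38.8 ± 2.86 (1 nM), 32.1 ± 2.46 (10 nM), 28.1 ± 2.97 (100 nM) and 31.8 ± 5.13 (1000 nM), and was called lower at each dose from 10 nM on. UQCRH rose at 1, 3 and 10 nM and was back near DMSO at 100 nM. Its values were 259, 250 and 269 CPM at 1 nM and 245, 273 and 302 CPM at 3 nM, against 170 to 202 CPM in DMSO, without overlap. At 1000 nM its mean was 171 ± 15.6 CPM. NDUFA7 was highest at 1 nM, with 182, 141 and 145 CPM, against 99.2 to 126 CPM in DMSO, and had a mean of 104 ± 8.79 CPM at 1000 nM. Its 182 CPM came from 1 nM replicate 1, which stood apart, and its mean at 3 nM was 133 ± 3.38 CPM.

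**Figure D3:**
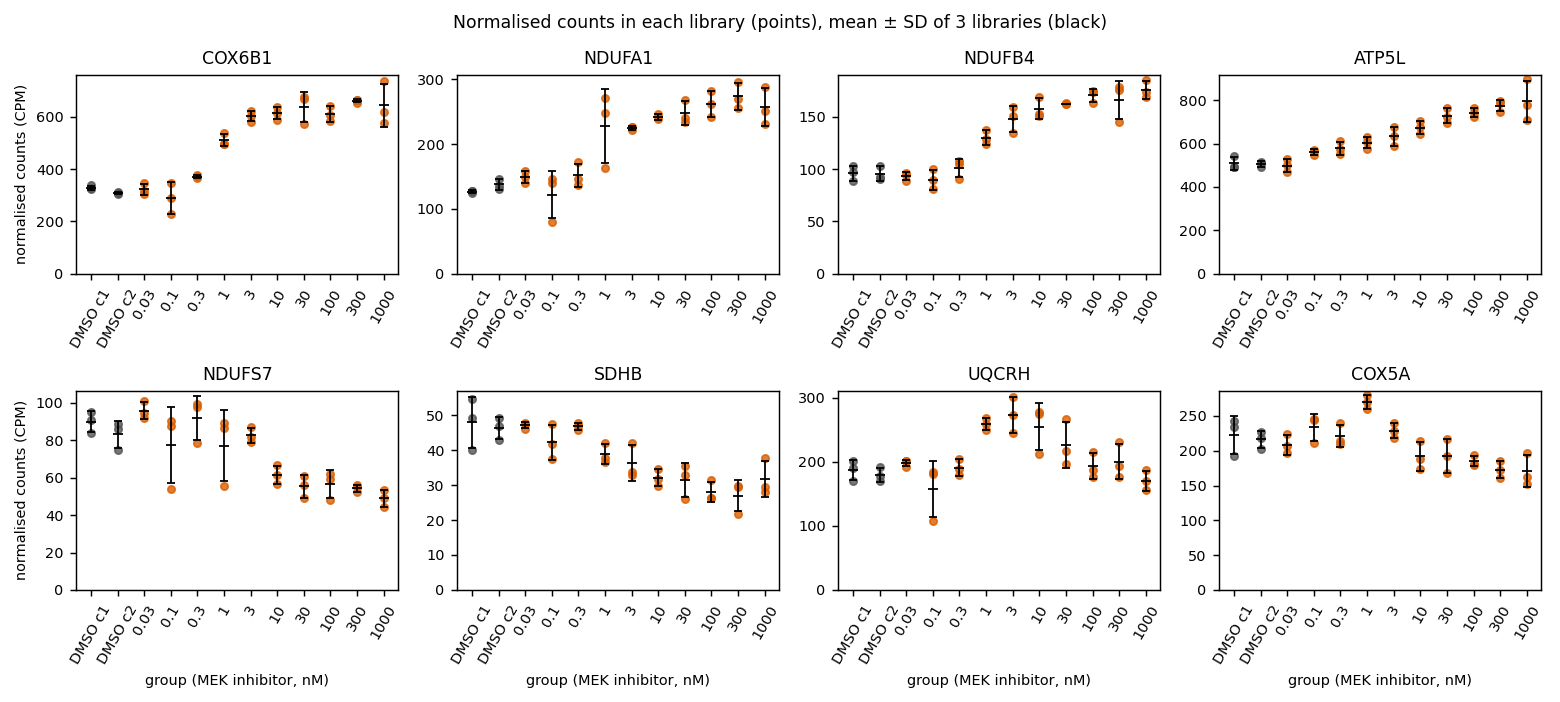
Normalised counts (CPM) of 8 members in each library (points), with the mean ± SD of 3 libraries (black), by group from DMSO (chip 1, c1, and chip 2, c2) through the doses in nM. COX6B1, NDUFA1, NDUFB4 and ATP5L lie above DMSO at 30 to 1000 nM, NDUFS7 and SDHB lie below it, and the mean of UQCRH is highest at 3 nM and that of COX5A at 1 nM.

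To describe the size of this decline, 30 to 1000 nM were set against 1 and 3 nM. Here too the chips of the treated libraries are unknown, so dose and chip cannot be told apart. The contrast was chosen because the dose courses had shown it, so its counts restate that pattern and are no independent test of it. In it 5 members were higher and 35 lower, where 53% of all genes were called, 26.5% higher and 26.6% lower. The members' median was −0.16, against 0.01 over all genes. The lower members were 14 of 34 in complex I, 2 of 4 in complex II, 7 of 10 in complex III, 3 of 11 in complex IV and 9 of 18 in ATP synthase. NDUFS7, NDUFA6 and COX5A fell most, by 0.58, 0.48 and 0.47, and UQCRH fell by 0.43. The higher members were COX6B2, ATP5L, NDUFB4, COX6B1 and ATP5G2, by 0.54, 0.30, 0.28, 0.20 and 0.13. The count of 5 became 8 without 1 nM replicate 1 and 10 without 1000 nM replicate 3.

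Within the high range, 300 and 1000 nM were compared with 30 and 100 nM, again with the chip of each treated library unknown. No member was called (0.768% of all genes were, 0.264% higher and 0.504% lower). In edgeR 11 members had an unadjusted p below 0.05, DESeq2 called 1 member lower, and 1 was called lower by edgeR without 1000 nM replicate 2. DMSO libraries of chip 2 against chip 1 gave 0 calls among members and among all genes, and 0 members with an unadjusted p below 0.05.

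The members also differed by the length of the protein they encode, taken from GENCODE 29 for 76 of them. Of the 42 that encode under 150 residues, 15 rose and 6 fell at 30 to 1000 nM, with a median log2 fold change of 0.12. Of the 34 that encode 150 residues or more, 4 rose and 16 fell, with a median of −0.20. The split was not among the planned comparisons, and COX5A, which fell, encodes 150 residues and so lies on the cut. The long members that rose were SDHA, SDHC, NDUFB5 and NDUFB8. Over all tested genes with a length, 28.0% of 690 under 150 residues were higher and 25.8% lower, and 23.7% of 10120 at or above it were higher and 24.7% lower. Across the members, which are genes and not replicates, Spearman's rho between length and fold change was −0.40, and over all tested genes 0.04. Length and complex are linked in part, since all core subunits of complex I encode 150 residues or more. Of the long complex I members outside the core, NDUFA9, NDUFA10, NDUFB9, NDUFB10 and NDUFS4 fell. NDUFB5 and NDUFB8 rose, and NDUFA8 and NDUFB11 were not called. The separate parts of length and complex were not tested.

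**Figure D4:**
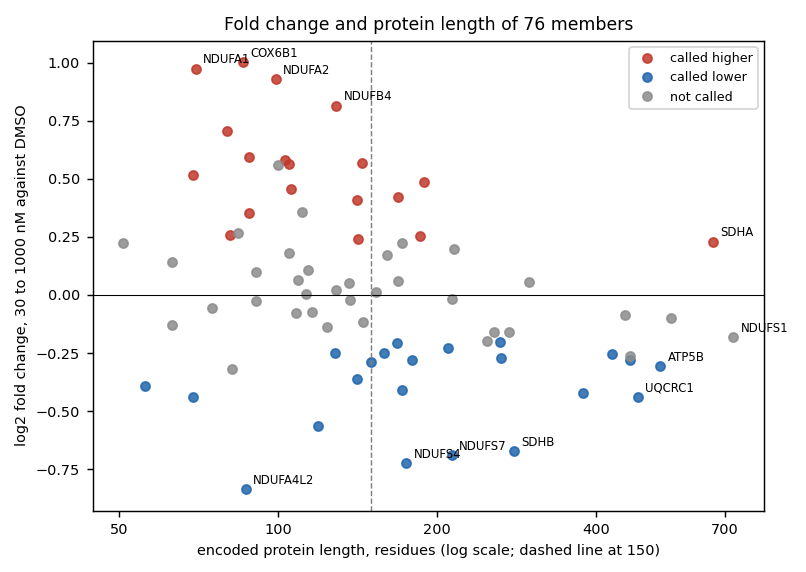
Log2 fold change of 76 members in the mean of 30 to 1000 nM against DMSO over the length of the encoded protein on a log axis, coloured by call. Left of the dashed line at 150 residues 15 members were called higher and 6 lower, and on or right of it 4 higher and 16 lower.

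Genes that build and feed the chain were followed as fixed lists at 30 to 1000 nM against DMSO. In this comparison 23.5% of all tested genes were called higher and 24.2% lower. Of 6 tested subunits and carriers outside the name rule, 4 fell and 1 rose, with a median of −0.43. CYC1, the cytochrome of complex III, had 88.5, 115 and 158 CPM at 30 to 1000 nM, against 182, 192 and 206 CPM in DMSO, and fell by 0.71. CYCS, cytochrome c, fell by 0.53 and NDUFAB1, the acyl carrier subunit of complex I, by 0.53. C14orf2, a small ATP synthase subunit, rose by 0.41.

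Of 45 assembly factors 19 fell and 5 rose, with a median of −0.32. NDUFAF5, NUBPL and NDUFAF2, which all act in complex I assembly, fell by 1.52, 1.46 and 1.35. NDUFAF2 had 18.3, 26.9 and 35.1 CPM at 30 to 1000 nM, against 64.9, 68.2 and 82.2 CPM in DMSO. COA3 and COX16, both of complex IV assembly, rose by 0.76 and 0.68, and SDHAF2, which attaches the flavin to SDHA, rose by 0.42. At 1 nM 0 of the 45 rose and 1 fell (NDUFAF5), where 3.95% of all genes were called higher and 4.02% lower. In edgeR 2 of them, UQCC and COA3, had a positive change at an unadjusted p below 0.05, and DESeq2 and limma voom called 0 higher.

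Of 17 genes of mitochondrial biogenesis and transcription 9 fell and 0 rose, with a median of −0.55. In edgeR none had a positive change at an unadjusted p below 0.05, and DESeq2 and limma voom called 0 higher. MYC had 49.9, 72.3 and 119 CPM at 30 to 1000 nM, against 411, 416 and 454 CPM in DMSO, and fell by 2.51. PPRC1, a coactivator of the PGC-1 family, fell by 1.48 and TFB2M, which starts transcription of mitochondrial DNA, by 1.39.

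Of 22 citric acid cycle and pyruvate dehydrogenase genes 13 fell and 5 rose, with a median of −0.41. PDK1, a kinase that switches off pyruvate dehydrogenase, fell by 2.30, and IDH3B and PDHB, subunits of isocitrate and pyruvate dehydrogenase, fell by 1.14 and 1.12. PDK2 and PDK4, kinases of the same family as PDK1, rose by 1.06 and 0.49, and OGDH rose by 0.36. The call of PDK4 was lost without DMSO chip 1 replicate 2 (adjusted p = 0.063, edgeR), and the 5 rises then became 2. Of 12 genes of coenzyme Q synthesis 2 fell, PDSS1 by 0.79 and ADCK3 by 0.69, and 0 rose. Both shares were below those of all tested genes, 24.2% lower and 23.5% higher. None had a positive change at an unadjusted p below 0.05 in edgeR, and DESeq2 and limma voom called 0 higher. Against the DMSO of chip 1 alone the counts were 4 lower and 2 higher.

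**Figure D5:**
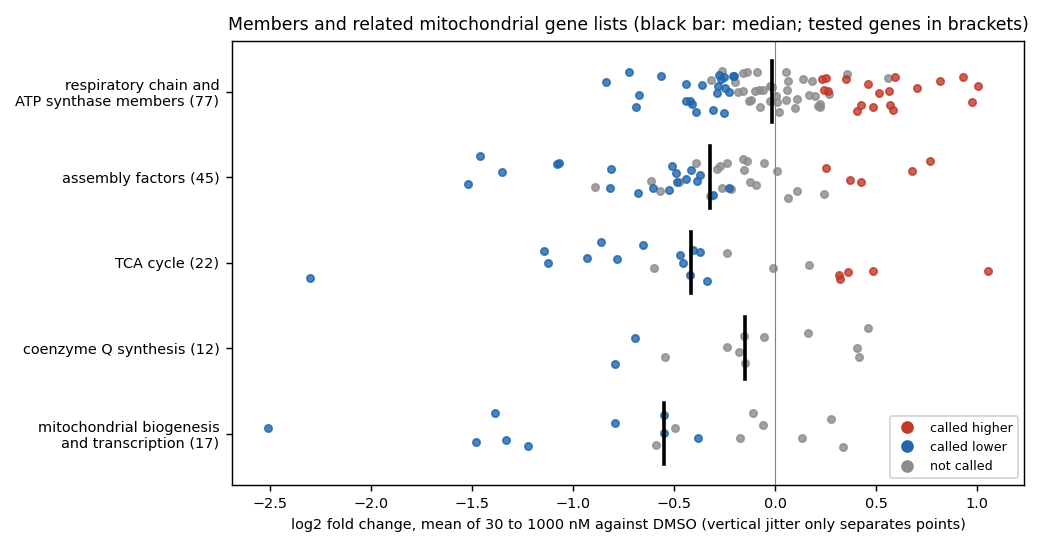
Log2 fold change in the mean of 30 to 1000 nM against DMSO for the 77 members and for 4 lists of related mitochondrial genes, each point a gene coloured by call and each black bar a median. The members centre near 0 (median −0.02) and spread to both sides, and the medians of the 4 lists lie between −0.15 and −0.55.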

How the data were processed

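RNA of LoVo cells was measured in 36 libraries, 3 in each of 12 groups, after 24 hours of treatment. The authors deposited whole-number counts per gene without normalization, and the submitters' processing notes name hg19 as the build. Which aligner and counter were used is not given in the sources used here. All 36 single files equalled the series matrix, whose 10 spike-in rows held 0 counts. Total counts were 2972186 to 4751839 per library, and amplified copies of 1 molecule were not merged.

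Counts were tested with edgeR 4.0.16 in R 4.3.3 (filterByExpr with the groups, TMM, robust quasi-likelihood fit of 12 groups, 24 residual degrees of freedom). The labels give the chip for DMSO libraries only, so each dose was tested against the DMSO groups of both chips, the larger p was adjusted by Benjamini-Hochberg over 12102 genes, and a call needed an adjusted p below 0.05 and 1 sign. Fold changes are against the mean of both groups, with the larger standard error. CPM values use TMM library sizes. An SD in DMSO is over 3 means of same-numbered libraries. Alternatives used limma 3.58.1 (voom) and DESeq2 1.42.0. The procedure was tested on simulated counts.

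Members, lists and motifs were chosen with earlier results of these data known. Named in full were, in each complex, up to 4 members called higher and 4 called lower with the largest change at 30 to 1000 nM, the SDH genes and paralogue sets, and up to 3 per direction in other lists and comparisons. Others were named by call, and 1 member is not reported here by name. Of 88 names, 67 are current symbols, 20 are older ones and 1 matched neither. ATP5S, ATP5SL, ATP5L2, UQCRBP1, UQCRHL and COX7A2L match by name but are not subunits, and without them 71 members remained. Promoters were taken from RefSeq, and where a symbol had more than 1 the first was used. Python 3.11.15, numpy 2.4.6, pandas 2.3.3, scipy 1.17.1 and matplotlib 3.10.9 were used.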

Additional observations from a re-analysis of the deposited data

How the results depend on the processing

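Alternatives were DMSO of chip 1 alone, of chip 2 alone or summed over chips, a replicate block, DESeq2, limma voom, RLE or upper quartile scaling, no filter on low counts, at least 1 CPM in 3 libraries, only the libraries of the contrast, omission of the 3 libraries that stand apart, other member sets (a mean of at least 20 counts, no names that are not subunits, NDUFA4 and NDUFA4L2 in complex IV), and each library left out in turn. Between 30 to 1000 nM and DMSO, 15 to 23 members were higher and 15 to 24 lower over the settings other than single libraries, and 16 to 19 and 15 to 22 over single libraries left out. Calls at 0.03, 0.1 and 0.3 nM stayed at 0 throughout.

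With DMSO of chip 1 alone, 24 members were higher at 1 nM, 2 lower at 3 nM, 10 lower at 30 nM and 16 lower at 100 nM, the median of F1 was −0.026 and that of all members at 3 nM 0.19. With chip 2 alone, 26 were higher at 1 nM, and these medians were −0.18 and 0.20. With DMSO summed, 2, 11, 17 and 20 were lower at 3, 30, 100 and 300 nM. With only the libraries of the contrast, 28 were higher and 2 lower at 3 nM, 10 and 19 lower at 30 and 100 nM, and 0 higher and 3 lower at 10 against 1 nM. Without the 3 libraries that stand apart, 2, 11 and 16 were lower at 3, 30 and 100 nM, and 10 higher at 30 to 1000 against 1 and 3 nM. DESeq2 called 0 lower at 3 nM, 1 lower at 300 and 1000 against 30 and 100 nM, and 8 higher at 30 to 1000 against 1 and 3 nM. Limma voom called 2 lower at 3 nM and 8 higher at 30 to 1000 against 1 and 3 nM. Upper quartile scaling gave 0 lower at 3 nM, 5 higher at 10 against 1 nM, 8 higher at 30 to 1000 against 1 and 3 nM and a median of all members at 3 nM of 0.21. No filter gave 2 lower at 300 and 1000 against 30 and 100 nM. The filter of 1 CPM gave 0 lower at 3 nM and 0 higher at 10 against 1 nM. The cause of these shifts was not tested.

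With a single library left out, 8 to 17 members were higher at 1 nM, 0 to 2 lower at 3 nM, 2 to 5 lower at 10 nM, 0 to 1 lower at 300 and 1000 against 30 and 100 nM, 0 to 4 higher at 10 against 1 nM, and 4 to 10 higher at 30 to 1000 against 1 and 3 nM. The medians ranged from −0.153 to −0.085 for complex I, from 0.16 to 0.21 for all members at 3 nM and from −0.088 to 0.0077 for all members at 1000 nM. UQCRHL, not called, ranged from −0.095 to 0.038 with 1 library left out and changed sign: 0.053 with DMSO of chip 1 alone, 0.00048 with upper quartile scaling, 0.019 without the 3 libraries that stand apart, 0.038 without DMSO chip 1 replicate 1, 0.027 without DMSO chip 2 replicate 1 and 0.015 without 1000 nM replicate 1.

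With the replicate number as a block, 19 members were higher and 21 lower at 30 to 1000 nM against DMSO, 2 higher at 10 against 1 nM, and 0 lower at 3 nM. The same-numbered DMSO libraries of both chips correlated at 0.095, 0.099 and 0.15 in their deviations and other DMSO libraries between −0.098 and −0.0021, so the numbers may mark the same samples on both chips. They were not taken to pair treated with DMSO libraries, since those of 1 number correlated between −0.097 and 0.12, and 6 of 30 treated libraries correlated best with DMSO of their own number. The amplicon counts set the limit for low members such as NDUFA4L2, COX6B2 and ATP5L2.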
